A study of Mus musculus with 4 samples.

Results

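A set of 10 genes of interleukin-2 (IL-2) and common gamma chain signalling were followed in regulatory T (Treg) cells sorted from the visceral adipose tissue (VAT) of male mice. They are 4 receptor chains (Il2ra, Il2rb, Il2rg, Il7r), the kinases Jak1 and Jak3, the transcription factors Stat5a and Stat5b, and the inhibitors Cish and Socs2. The 10 genes were taken by symbol from the 32285 genes of each deposited table, where each symbol has 1 row. RNA of single cells was captured in droplets by its 5′ end and counted as unique molecular identifiers (UMIs), 1 for each captured molecule. Cells carried an antibody hashtag for their condition and were then mixed 1:1, in 2 experiments.

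One experiment mixed genotypes and is called the Srebf2 pool here. Its Hashtag 1 marked WT cells, from 25-week-old Foxp3YFP-cre mice with Srebf2WT/WT (n = 4 mice). Hashtag 2 marked KO cells, from Srebf2flox/flox mice of the same age (n = 4 mice), read here as carrying the same Cre. Srebf2 encodes the transcription factor SREBP2, which switches on cholesterol synthesis, and a Cre driven from Foxp3 acts in Treg cells of all tissues, not in adipose tissue alone. In the diet pool, Hashtag 3 marked NCD cells from Foxp3thy1.1 PpargTdt mice on normal chow, and Hashtag 4 marked HFD cells from mice of the same alleles on a high-fat diet. The diet lasted 22 weeks, and these mice were 23 to 27 weeks old (n = 5 mice a diet). Mice of a condition share 1 hashtag, so each condition is 1 sample. The pools are separate libraries from mice of different alleles, so a level in 1 pool is set beside the other only as a description. No test between conditions was possible, no p-value is given, and all intervals (95%) cover counting error only, not the spread between mice.

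IL-2 binds a receptor of up to 3 chains: Il2ra (CD25) raises the affinity, and Il2rb and the common gamma chain Il2rg carry the signal. Il2rg is also shared by the receptors for IL-4, IL-7, IL-9, IL-15 and IL-21, and Il7r pairs with it to bind IL-7. The receptor tails hold the kinases Jak1 and Jak3, which phosphorylate the STAT5 proteins, and STAT5 in turn induces Il2ra and the feedback inhibitors Cish and Socs2. Treg cells make little IL-2 themselves and depend on it from other cells. In VAT many of them express Il1rl1, which encodes ST2, the receptor for IL-33.

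STAT5 dimers bind the palindrome TTCNNNGAA, which reads the same on both strands. RefSeq promoter entries (GRCm38.p6, the assembly also called mm10, which the submitters' processing notes name) were found for 8 of the 10 genes. In the 250 bases before the listed start, Il7r was the only one of the 8 with a match, 142 bases before the entry's start, which lies 65 bases inside the RefSeq gene, so that the match is 77 bases before the gene's own start. Of all 32851 windows, 7.02% hold one. The 50 bases after the start were added to the search once the Cish entry had been seen, and Cish has 2 matches there. Of all 300-base entries, 8.30% hold a match and 0.457% hold 2 or more. The stretches below are shown, with matches in capitals, because Il2ra and Cish were lower in HFD than in NCD inside both Il1rl1 classes described further on and Il7r was not. Il2ra lies at chr2:11642792-11693194, Il7r at chr15:9506159-9529941 and Cish at chr9:107296659-107302784. A match is a description of letters and not a measured binding site.
Il2ra, chr2:11642542-11642791, plus strand: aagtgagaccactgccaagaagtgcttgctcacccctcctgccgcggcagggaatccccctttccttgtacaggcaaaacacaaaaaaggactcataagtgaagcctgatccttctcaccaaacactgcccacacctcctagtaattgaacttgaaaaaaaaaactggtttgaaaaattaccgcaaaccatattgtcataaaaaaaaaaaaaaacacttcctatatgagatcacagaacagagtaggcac
Il7r, chr15:9529942-9530126, minus strand: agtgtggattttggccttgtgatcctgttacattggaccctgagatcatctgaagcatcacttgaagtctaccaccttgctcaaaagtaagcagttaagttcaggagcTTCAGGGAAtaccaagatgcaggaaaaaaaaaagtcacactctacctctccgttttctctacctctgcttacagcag
Cish, chr9:107296654-107296683, plus strand: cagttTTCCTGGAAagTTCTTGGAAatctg

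Cells with 500 or more genes, a mitochondrial share under 10%, at least 90% of hashtag counts from 1 hashtag and no UMI of Cd79a, Lyz2 or Cd8a were kept. There were 3490 WT, 3956 KO, 4938 NCD and 4512 HFD cells, with 14010241 to 22200627 UMIs a condition and median depths from 3193.5 (HFD) to 3989 UMIs (NCD). Neither hashtag reached 90% in 12.7% of the barcodes of the Srebf2 pool and 8.57% of those of the diet pool, and doublets within a condition were not removed. The libraries shared 135 barcodes, 87 of them among kept cells. Levels are counts per 1000000 UMIs (CPM). The level of Srebf2 was 3.95 CPM in KO cells, from 65 UMIs, beside 65.7 CPM in WT cells. Foxp3, the defining Treg gene, had a UMI in 53.7% to 56.7% of WT, KO and NCD cells and in 40.5% of HFD cells. The 5 Treg markers examined (Foxp3, Ctla4, Ikzf2, Tnfrsf18 and the member Il2ra) were detected in every condition, at a summed 2687 to 3221 CPM. The sum hides differences of single markers: it was 2805 CPM in NCD and 2687 in HFD, where Il2ra alone was at 656 and 193 CPM. Detection in sums over so many cells does not by itself mark Treg cells: all 3 plasma cell markers examined were detected in every condition too. An Il1rl1 UMI was found in 78.1% of NCD, 17.6% of HFD, 71.0% of WT and 58.7% of KO cells. The HFD cells thus stand apart from the other 3 conditions, and HFD results for the members and for the other named pathway genes are also given within Il1rl1-positive and Il1rl1-zero cells.

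In HFD cells, Il2ra and both inhibitors stood far below their NCD levels, whereas both STAT5 genes stood above. Of the 10 members, 4 were lower by at least 1.3-fold in HFD than in NCD (Il2ra, Il7r, Cish and Socs2), beside 13.8% of the 10024 genes compared. Another 2 were higher (Stat5a and Stat5b), beside 19.8% of genes. In KO against WT, 2 members were higher by this rule (again Stat5a and Stat5b), beside 4.06% of the 9822 genes compared, and 0 were lower, beside 3.39%. The 1.3-fold rule is one of size and covers genes that reach 5 CPM in the higher of the conditions compared. The median log2 ratio over the members was 0.04 for KO against WT and -0.13 for HFD against NCD, beside 0.00 and 0.08 over all genes compared.

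**Figure D1:**
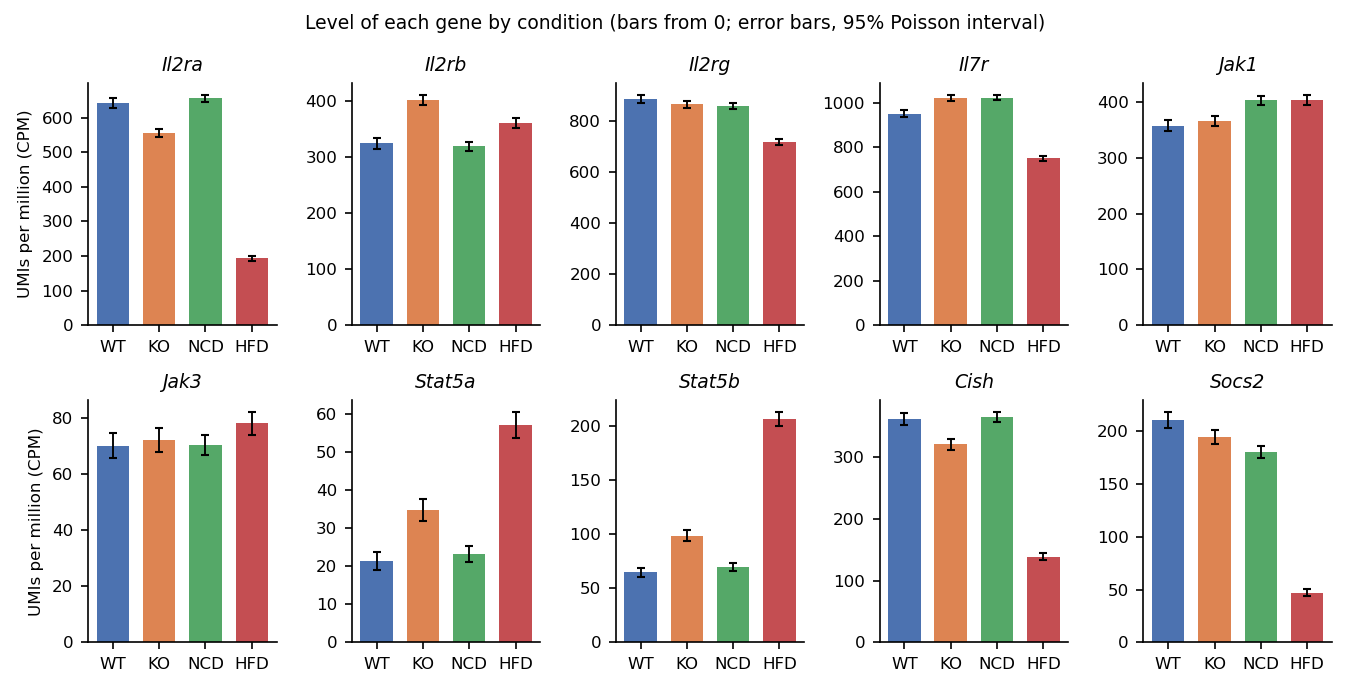
Level of each of the 10 genes in CPM (y axis, from 0) in the 4 conditions (x axis), over all kept cells, with exact 95% Poisson intervals. Il2ra, Cish and Socs2 are lowest in HFD (193, 139 and 46.9 CPM), and Stat5a and Stat5b are highest in HFD (57.0 and 206 CPM) and next highest in KO (34.7 and 98.7 CPM).

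Il2ra, the high-affinity chain, stood at 656 CPM in NCD (interval 645 to 666), 193 in HFD (187 to 200), 642 in WT (629 to 655) and 554 in KO (543 to 566). WT and NCD overlapped, KO lay below both, and HFD lay far below the other 3. The log2 ratio was -1.76 for HFD against NCD (-1.82 to -1.71) and -0.21 for KO against WT (-0.25 to -0.17). At an equal depth of 2000 UMIs a cell, 61.5% of NCD, 24.4% of HFD, 59.5% of WT and 50.9% of KO cells held an Il2ra UMI. B cell barcodes of the same pools, which show what free RNA can give, held one in 1.56% (1 of 64 in the Srebf2 pool) and 3.29% of cells (5 of 152 in the diet pool). HFD cells with 4 or more Il2ra UMIs were 1.29% of the cells, against 7.35% in NCD.

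Il2rb, the signalling chain that IL-2 and IL-15 share, was at 319 CPM in NCD, 360.4 in HFD, 324 in WT and 402 in KO. Its highest level (KO) was 1.26 times its lowest (NCD), and WT and NCD overlapped. The log2 ratio was 0.31 for KO against WT (0.25 to 0.36) and 0.18 for HFD against NCD (0.13 to 0.23), so that neither passed 1.3-fold. Il2rg, the common gamma chain, stood at 858 CPM in NCD, 715 in HFD, 886 in WT and 863 in KO, with a log2 ratio of -0.26 for the diets. It varied least of the receptor chains, by 1.24 times between its highest and lowest condition.

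Il7r, the IL-7 receptor chain, which is usually low in Treg cells of blood and lymph nodes, was detected in most of these cells. Its level was 1023 CPM in NCD, 749.9 in HFD, 950.4 in WT and 1021 in KO. NCD and KO overlapped, and HFD was lowest, at a log2 ratio of -0.45 against NCD (-0.48 to -0.42). This was the smallest of the 4 lower ratios. It fell short of 1.3-fold when no lineage filter was used (-0.32), with ribosomal, mitochondrial and antigen receptor genes out of the total (-0.37) and for the mean of each cell's own CPM (-0.28). With the Il1rl1-positive class given the same weight, 47.8%, in NCD and in HFD, it was -0.00.

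The kinases differed by less than 1.3-fold over all kept cells. Jak1, which binds Il2rb and Il7r, stood at 403 CPM in NCD, 405 in HFD, 357 in WT and 366 in KO. Jak3, which binds the common gamma chain, stood at 70.1, 78.0, 70.0 and 71.9 CPM in the same order. Within each experiment the Jak1 intervals overlapped, and the log2 ratio for the diets was 0.00 (-0.04 to 0.05). For Jak3 the diet ratio was 0.15 (0.05 to 0.26) and the genotype ratio 0.04 (-0.08 to 0.16).

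Stat5b was at 69.5 CPM in NCD (66.1 to 73.1), 206 in HFD (200 to 213), 64.7 in WT (60.6 to 69.1) and 98.7 in KO (94.0 to 104). WT and NCD overlapped, KO was above both, and HFD was above KO. The log2 ratio was 1.57 for HFD against NCD (1.48 to 1.66) and 0.61 for KO against WT (0.49 to 0.73). Stat5a, its close paralog, followed the same order, with 23.1 CPM in NCD, 57.0 in HFD, 21.3 in WT and 34.7 in KO. Its log2 ratios were 1.3 (1.15 to 1.46) and 0.70 (0.50 to 0.91). In RefSeq both genes lie on chromosome 11, Stat5b at chr11:100780731-100859004 and Stat5a at chr11:100859351-100885169, with 346 bases between them. The split between these paralogs is uncertain, because no source used here says how reads that match both were counted. At 2000 UMIs a cell, 16.2% of NCD, 38.8% of HFD, 14.8% of WT and 21.6% of KO cells held a UMI of either STAT5 gene.

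Over all kept cells the feedback inhibitors were lowest in HFD, as Il2ra was, where the STAT5 genes were highest. Cish, which binds cytokine receptor tails, stood at 365 CPM in NCD (357 to 373), 139 in HFD (133 to 144), 361 in WT (352 to 371) and 320.5 in KO (312 to 329). Socs2, a related SH2 protein, was at 180.3 CPM in NCD, 46.9 in HFD, 210.3 in WT and 194 in KO. Socs2 had the widest range of the 10 members, 4.48 times between WT and HFD. The log2 ratios for HFD against NCD were -1.40 (-1.46 to -1.33) for Cish and -1.94 (-2.05 to -1.84) for Socs2, whereas those for KO against WT were -0.17 and -0.12. A UMI of either gene was found in 61.8% of NCD, 25.3% of HFD, 61.7% of WT and 56.8% of KO cells at equal depth.

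Because the Il1rl1-positive share differed between conditions, each ratio was also taken inside each class. Il1rl1-zero cells are cells in which no Il1rl1 UMI was captured. They may include both cells missed by shallow sampling and cells without the transcript, which were not told apart. The other ST2-high adipose Treg markers (Klrg1, Pparg, Gata3, Areg) summed to 1893 CPM in Il1rl1-zero NCD cells, 495 in HFD, 2208 in WT and 1650 in KO. In Il1rl1-positive cells, Il2ra stood at 726 CPM in NCD, 361 in HFD, 740.5 in WT and 714 in KO. In Il1rl1-zero cells it stood at 305, 149.7, 341 and 260.3 CPM in the same order. HFD was lowest in both classes, and its log2 ratio to NCD was -1.01 in positive cells (-1.09 to -0.93) and -1.03 in zero cells (-1.13 to -0.92). Both are smaller than the -1.76 over all cells. For KO against WT the ratio was -0.05 in positive cells (-0.10 to -0.01) and -0.39 in zero cells (-0.50 to -0.28).

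**Figure D2:**
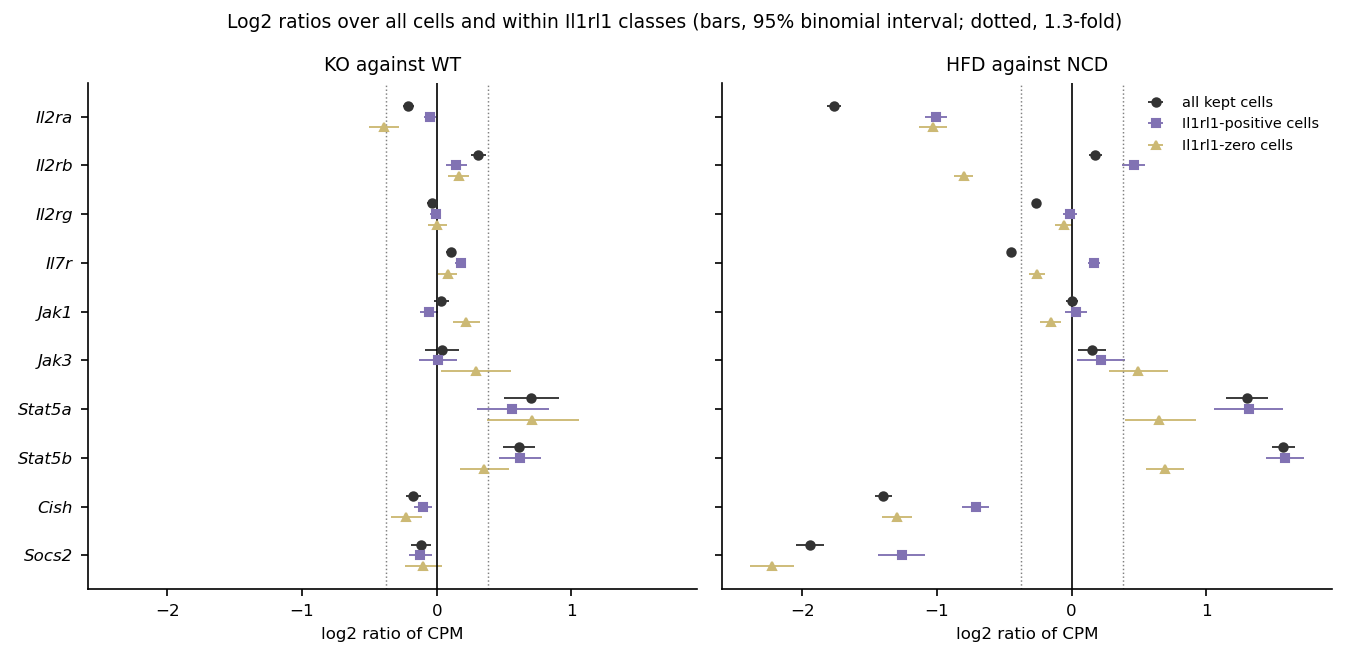
Log2 ratio of CPM (x axis) for the 10 genes (y axis), KO against WT on the left and HFD against NCD on the right, over all kept cells and inside each Il1rl1 class, with 95% binomial intervals and dotted lines at 1.3-fold. Il2ra, Cish and Socs2 lie left of 0 and the STAT5 genes right of 0 in every HFD class, while Il2rb lies on opposite sides (0.46 and -0.80).

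Both STAT5 genes were higher in HFD than in NCD inside each class. Stat5b stood at 56.7 CPM in NCD, 170.1 in HFD, 50.8 in WT and 78.0 in KO among Il1rl1-positive cells, and at 134, 216, 107 and 137 CPM among Il1rl1-zero cells. The diet ratio was thus 1.59 in positive cells (1.44 to 1.73) and 0.69 in zero cells (0.56 to 0.83). For Stat5a these ratios were 1.32 and 0.65. The genotype ratio of Stat5b was 0.62 in positive cells and 0.35 in zero cells, and that of Stat5a was 0.56 and 0.70.

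Cish and Socs2 were also lower in HFD inside each class. Cish stood at 382 CPM in NCD and 233 in HFD among Il1rl1-positive cells, and at 280.0 and 114 CPM among Il1rl1-zero cells. Socs2 stood at 179 and 74.8 CPM among positive cells and at 186 and 39.7 CPM among zero cells. The diet ratios were -0.71 and -1.3 for Cish, and -1.26 and -2.23 for Socs2. Between KO and WT, the 4 ratios of these inhibitors lay from -0.23 to -0.10.

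Il2rb was the one member whose diet ratio had opposite directions in the classes past 1.3-fold. Among Il1rl1-positive cells it was at 256 CPM in NCD, 353 in HFD, 238 in WT and 263 in KO, and among Il1rl1-zero cells at 631, 362, 586 and 656 CPM. HFD was the highest condition in the former and the lowest in the latter. The log2 ratios were 0.46 (0.37 to 0.55) and -0.80 (-0.87 to -0.73). Natural killer and CD8 T cell markers (Cd8b1, Ncr1, Klrb1c, Gzma, and Cd8a, which the cell filter sets to 0) also differed among Il1rl1-zero cells. They summed to 92.4 CPM in NCD and to 20.6 CPM in HFD, with Ncr1 at 0 in HFD. Among Il1rl1-positive cells they summed to 18.7 CPM in NCD and 22.3 CPM in HFD. With 8 further lineage genes at 0, among them Ncr1, Klrb1c and Gzma, the Il2rb ratio in Il1rl1-zero cells was -0.79. Among those with a Foxp3 UMI it was -0.80. The lineage filter keeps cells in which no such UMI was captured, and the part of natural killer and CD8 T cells in the Il2rb ratios was not tested. Il7r stood at 1077 CPM in NCD and 1208 in HFD among positive cells and at 754 and 631 CPM among zero cells, ratios of 0.17 and -0.26. Il2rg had diet ratios of -0.01 and -0.06 inside the classes, and Jak1 had 0.03 and -0.16. Jak3 stood at 73.3 CPM in NCD and 85.3 in HFD among positive cells (0.22), and at 54.1 and 76.1 CPM among zero cells. The latter ratio, 0.49 (0.27 to 0.72), passed 1.3-fold, unlike the ratio over all cells.

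Within each condition, Il1rl1-positive and Il1rl1-zero cells differed in their receptor chains. Il2ra was higher in positive cells in all 4 conditions, with log2 ratios from 1.12 (WT) to 1.46 (KO). Il7r was higher too, by 0.51 in NCD, 0.94 in HFD, 0.49 in WT and 0.58 in KO. Il2rb ran the other way in WT, KO and NCD, at -1.3, -1.32 and -1.3, and stood at -0.04 in HFD (-0.13 to 0.05). Stat5b was lower in positive cells, at -1.07, -0.81 and -1.24 in the same 3 conditions and -0.34 in HFD. Cish was higher in them, by 0.35, 0.47, 0.45 and 1.03, and Socs2 differed in HFD (0.92) but was at 0.01, -0.01 and -0.05 elsewhere.

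By the 1.3-fold rule, 3 members were higher in Il1rl1-positive WT cells and 3 lower, beside 10.4% and 16.6% of genes. In KO these counts were 3 and 3, beside 9.25% and 19% of genes, and in NCD they were 4 and 3, beside 9.99% and 21.7%. In HFD 5 were higher and 0 lower, beside 12% and 12.3% of genes. Positive cells were deeper (median 3802 UMIs against 3046 in WT), and a deep cell is more readily called positive. When every cell was first thinned to 2000 UMIs, the Il2ra ratio was 0.71 in NCD, 1.5 in HFD, 0.82 in WT and 1.24 in KO. Cells were classed again by their remaining Il1rl1 UMIs, so the classes changed too. In NCD, Il1rl1-zero cells went from 1083 to 1524, although shallower cells were left out. Thinning also took the Stat5a ratio in WT from -0.64 to -0.16. After thinning, 2 members were higher and 2 lower in WT, 2 and 3 in KO, 2 and 3 in NCD, and 5 and 1 in HFD. Shares over all genes were not taken after thinning, so these counts cannot be set beside them. Jak3 in WT and NCD and Cish in KO and NCD no longer passed, and Stat5b in HFD now did.

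The number of Il1rl1 UMIs in a thinned cell gave a finer scale. From 0 through 1 and 2 to 3 up to 4 or more Il1rl1 UMIs, Il2ra stood at 432.5, 616, 735 and 1217 CPM in WT and at 152, 344, 429 and 776 CPM in HFD. Il7r stood at 840.0, 1055, 1059 and 1476 CPM in WT and at 781, 1306, 1616 and 1970 CPM in HFD. Both genes had a higher point value at each step in all 4 conditions, but some neighbouring intervals overlapped. For Il7r in WT they were 1005 to 1107 CPM at 1 UMI and 1008 to 1111 CPM at 2 to 3 UMIs. Il7r steps also overlapped in NCD from 1 UMI on and in HFD from 2 to 3 UMIs on. Il2ra steps overlapped in HFD between 1 UMI and 2 to 3 UMIs. At every step Il2ra was lower in HFD than in NCD. Il7r was higher in HFD than in NCD from 1 Il1rl1 UMI on. Cish reached 336 CPM in the 67 HFD cells of the top step, beside 387 CPM in NCD. Stat5b, in contrast, was higher in HFD than in NCD at each step, from 224 against 103 CPM to 127 against 56.4 CPM.

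**Figure D3:**
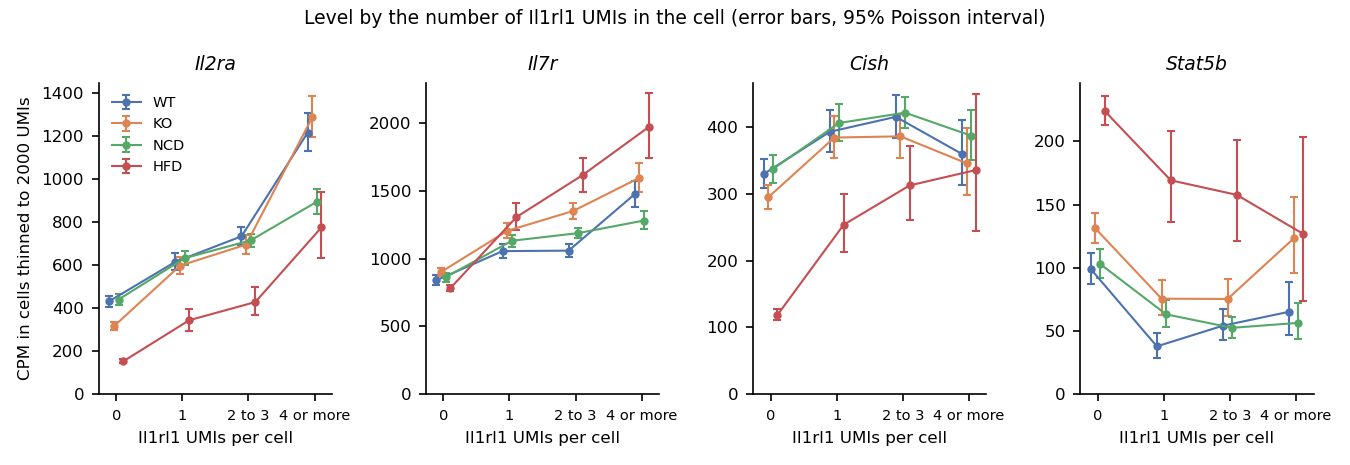
CPM (y axis, from 0) of Il2ra, Il7r, Cish and Stat5b by the number of Il1rl1 UMIs in a cell thinned to 2000 UMIs (x axis), 1 line a condition, with 95% Poisson intervals. The points for Il2ra and Il7r are higher with each step in all 4 conditions, though some neighbouring intervals overlap. The HFD line for Il2ra lies lowest throughout (152 to 776 CPM).

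The receptor genes were then combined within single cells at 2000 UMIs. A UMI of Il2ra and of Il7r was present in 50.3% of NCD, 17.4% of HFD, 46.8% of WT and 41.0% of KO cells. Il7r without Il2ra was found in 27.8%, 47.7%, 28.5% and 35.3%, and neither gene in 10.7%, 27.9%, 12.0% and 13.7%, in the same order. Over all cells, the most frequent state was thus both genes in WT, KO and NCD, and Il7r alone in HFD. Among cells Il1rl1-positive after thinning, both genes and Il7r alone were each seen in 44.8% of HFD cells. In NCD these shares were 57.7% and 24.7%. Among Il1rl1-zero cells they were 13.0% and 48.1% in HFD and 34.9% and 34.1% in NCD. Il7r alone also led among KO zero cells (40.6% against 26.7%), but not among WT zero cells (32.5% against 34.7%). UMIs of all 3 IL-2 receptor chains were seen in 16.7% of NCD, 8.52% of HFD, 18.4% of WT and 16.7% of KO cells. Among cells Il1rl1-positive after thinning that share was 17.3% in NCD (16.0% to 18.6%) and 18.7% in HFD (15.4% to 22.2%), intervals that overlap. Among Il1rl1-zero cells it was 15.7% in NCD (13.9% to 17.6%) and lower in HFD, at 6.86% (6.02% to 7.78%). Il2rb and Il2rg are the chains of the intermediate-affinity receptor. Both without Il2ra were seen in 12.3% of NCD, 23.5% of HFD, 12.1% of WT and 16.4% of KO cells. This share was 7.96% in NCD and 16.6% in HFD among cells Il1rl1-positive after thinning. It was 21.3% in NCD (19.2% to 23.4%) and 24.7% in HFD (23.2% to 26.2%) among Il1rl1-zero cells, intervals that overlap. A missing UMI at this depth does not show that the gene is silent.

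**Figure D4:**
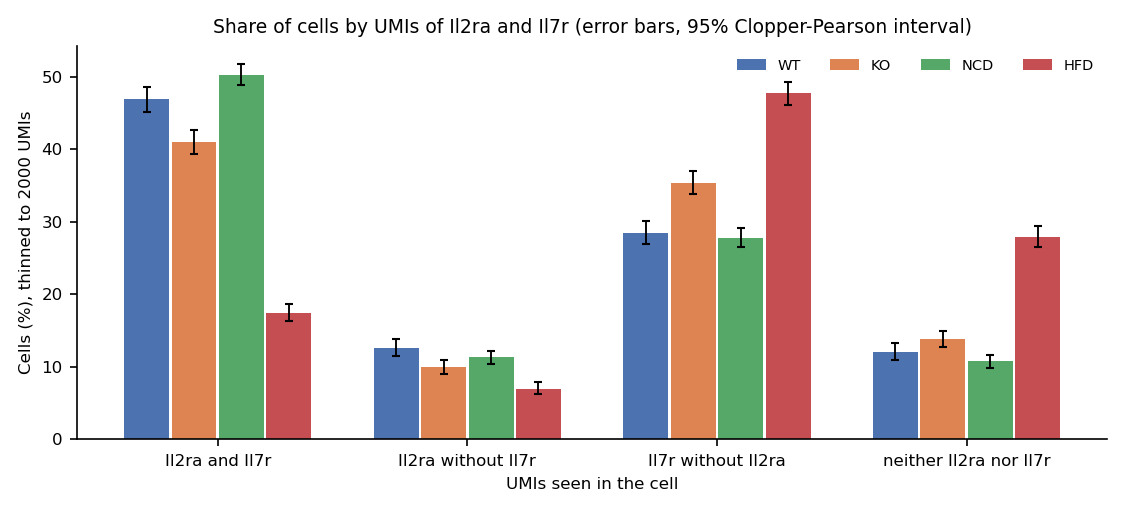
Share of cells (y axis, %, from 0) with UMIs of Il2ra and Il7r together, of either alone or of neither (x axis), in the 4 conditions after thinning to 2000 UMIs, with 95% Clopper-Pearson intervals. Over all thinned cells, those with both genes are the largest group in WT, KO and NCD (41.0% to 50.3%). In HFD, cells with Il7r alone are the largest group (47.7%).

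Of 5 partner receptor chains, 1 was lower in KO and none higher, beside 3.39% and 4.06% of all genes compared. This was Il15ra, the IL-15 binding chain, at 13.4 CPM in KO beside 20.6 in WT (log2 ratio -0.62, -0.88 to -0.36). The Il15ra ratio was -0.70 in Il1rl1-positive cells and -0.37 in Il1rl1-zero cells, short of 1.3-fold in the latter. For HFD against NCD, 1 of the 5 was lower and 1 higher, beside 13.8% and 19.8% of all genes, so these counts are near those shares. In HFD, Il9r, the IL-9 receptor chain, was lower, at 10.1 CPM against 43.7 in NCD (-2.10), and Il21r, the IL-21 receptor chain, was higher, at 133 against 93.6 CPM (0.50). Inside the Il1rl1-positive and Il1rl1-zero classes the Il9r ratio was -0.91 and -1.81, and that of Il21r was 0.33 and 0.03, short of 1.3-fold in both. Of 6 cytokines that use the common gamma chain, 0 reached 5 CPM, the highest being Il2 at 2.53 CPM in HFD. Of the other STAT genes, Stat2, which acts in interferon signalling, stood at 28.3 CPM in HFD against 18.3 in NCD (0.63), with 0.52 in positive and 0.20 in zero cells.

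Among 12 other inhibitors of JAK-STAT signalling, 0 passed the rule in KO, beside 4.06% of all genes higher and 3.39% lower. In HFD 5 were higher and 1 lower (median 0.34), beside 19.8% and 13.8% of all genes compared. The farthest were the phosphatase gene Ptpn6 (SHP-1), at 83.6 CPM in HFD against 33.6 in NCD (1.32), then Socs5 (1.21), Socs3 (1.21) and Ptpn1 (0.66). Socs1, named after its value was seen as the one that was lower, stood at 109.6 against 158 CPM (-0.53), and fell short of the rule in positive (-0.38) and zero cells (-0.31). In the same classes Ptpn6 was at 0.88 and 0.89, Socs5 at 1.38 and 0.69, Socs3 at 1.02 and 0.49, and Ptpn1 at 0.56 and 0.35. Cish and Socs2 were thus lower in HFD where Socs3 and Socs5 were higher. Of 12 genes known as induced by IL-2 or STAT5, 1 was higher in KO, beside 4.06% of all genes. This was the protease gene Gzmb (23.1 CPM in WT, 34.5 in KO, ratio 0.58), at 0.48 in positive and 0.30 in zero cells, short of the rule in the latter. In HFD 8 of the 12 were lower and 3 higher, beside 13.8% and 19.8% of all genes, with a median of -0.54. Lower were Gzmb (-1.65), the survival gene Bcl2l1 (-1.19) and the kinase gene Pim1, at 479 CPM against 1043 in NCD (-1.12). Inside the positive and zero classes these ratios were -0.93 and -2.93 for Gzmb, -0.54 and -1.09 for Bcl2l1, and -0.40 and -0.98 for Pim1. Foxp3 was lower over all cells, at 162 against 213 CPM (-0.39), but fell short of the rule in positive (-0.04) and zero cells (-0.36). The survival gene Bcl2 was higher, at 144 against 60.6 CPM (1.25), with 0.83 in positive and 0.06 in zero cells.

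A list of 11 dissociation and early response genes, such as Fos and Egr1, differed with the diet beside these results. All 11 were lower in HFD than in NCD by the 1.3-fold rule (median -2.38), beside 13.8% of all genes. In KO against WT, 3 of the 11 genes were lower (median -0.31), beside 3.39% of all genes. Their part in the differences of the members was not tested.

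Across 8 points, the 4 conditions each split by Il1rl1, the profiles of 7117 genes were ranked by their likeness to Il2ra and to Stat5b in log2 CPM. The points share libraries, so the correlations describe only these data. Closest to Il2ra were Ramp1 (Pearson r 0.99, Spearman rho 0.95), Gm2a, Eml6, Ebpl and Kdsr, all with r of 0.99. Among members, Cish was nearest to Il2ra (r 0.90, rank 314), ahead of Il2rg (r 0.90, rank 322) and Il7r (r 0.80). Socs2 was less like Il2ra (r 0.65, rho 0.38, rank 1034). Stat5b had an r of -0.92 with Il2ra. Closest to Stat5b were Nt5e, Art2b, Stk4, Lsm3 and Aff3, all with r of 0.99, and Stat5a was in place 18 (r 0.98). Ramp1 ran from 74.5 to 354 CPM over the 8 points, and Nt5e, which encodes CD73, from 12.6 to 95.3 CPM.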

How the data were processed

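The authors deposited raw UMI counts per gene and cell barcode with hashtag counts as further rows, per the file headers. The matrix headers name Cell Ranger 7.1.0 (Srebf2 pool) and 7.0.1 (diet pool), and the submitters' processing notes name 7.0.1 and mm10. Other filters the authors applied are not stated in those sources. Antigen receptor data were not analysed here, and results that need certain genes are not reported here.

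From the deposited counts, UMIs of the kept cells were summed per condition and divided by their total (CPM). Ratios are log2 with 0.5 counts added to each sum; levels have exact Poisson, ratios exact binomial-split and shares Clopper-Pearson intervals. For shares, cells were thinned to 2000 UMIs, leaving out 307 WT, 311 KO, 286 NCD and 711 HFD cells that were shallower. PCR copies were collapsed by UMI. The ratio code was tested on simulated data. Named genes are the members, Srebf2, Foxp3, Il1rl1, up to 4 genes a list and comparison past 1.3-fold, and the 5 most like Il2ra and Stat5b. Members and lists were chosen with earlier results of these data known. Protein sequences were not used here. Python 3.11.15, numpy 2.4.6, scipy 1.17.1 and pandas 2.3.3 were used.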

Additional observations from a re-analysis of the deposited data

Results flagged for a closer look

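Il2rb had diet ratios of opposite direction in the Il1rl1 classes: log2 0.46 in Il1rl1-positive and -0.80 in Il1rl1-zero cells, HFD against NCD. With 1 sample a condition, the difference between these ratios was not tested.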

How the results depend on the processing

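The 4 counts of members past 1.3-fold stayed within 1.5 times of their values under the 14 alternatives run, 2 of which were chosen after seeing the data (8 further lineage genes at 0, and 100 or more hashtag counts per cell). No ratio past 1.3-fold reversed. Of 260 recomputed ratios over all cells, 43 moved beyond their counting interval. In 1 alternative the Il1rl1-positive class was given the same weight, 47.8%, in NCD and in HFD. This moved the diet ratio to -1.01 for Il2ra, -0.34 for Il2rb, 0.91 for Stat5a, 1.00 for Stat5b, -0.94 for Cish and -1.69 for Socs2. Over all alternatives the diet ratio ran from -1.84 to -1.01 for Il2ra and from 1.00 to 1.65 for Stat5b, and the genotype ratio of Stat5b from 0.48 to 0.65. All 80 recomputed shares of cells moved with the thinning depth. No paired analysis was possible because each condition is 1 sample. No replicate could be left out for the same reason.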
